A study of Oryza sativa with 6 samples.

Results

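The enzymes of oxylipin and jasmonate synthesis were followed in root tips of Japonica rice given aluminium (Al), a rhizotoxic metal ion of acid soils. A gene was taken where a probe set assigned to 1 locus carried, in its deposited transcript annotation, the words lipoxygenase, allene oxide, hydroperoxide lyase, 12-oxophytodienoate, acyl-CoA or acyl-coenzyme A oxidase, or jasmonate O-methyl. This gave 47 genes of the 34960 genes with such a probe set. They were 14 lipoxygenases, 3 genes of allene oxide synthase or cyclase, 8 reductases of 12-oxophytodienoate, 3 acyl-CoA oxidases and 19 genes annotated as jasmonate O-methyltransferase. No gene matched through the words hydroperoxide lyase. A gene with more than 1 probe set was represented by the brightest of them over the 6 arrays.

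The tips after Al came from seedlings given 50 µM Al at pH 4.5 in 0.5 mM CaCl2 for 6 h (3 arrays). The tips before Al came from seedlings kept on 0.5 mM CaCl2 without Al (3 arrays). Seedlings were 5 d old, tips were 0 to 1 cm long, and the labels call the cultivar Japonica without a line name. Both groups were hybridised to Affymetrix rice arrays, and values are log2 signals as deposited. No tips kept for 6 h without Al were used here and the pH before Al is not given, so Al, time in solution and pH cannot be told apart. The labels call the arrays of a group biological repeats without saying that the seedlings were raised separately, so a p-value here weighs a difference against the spread of these 3 arrays a group, part of which may be technical.

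Oxylipins are oxidised fatty acids that plants use as wound, stress and defence signals, and jasmonate is the best known of them. Lipoxygenases add oxygen to linolenic or linoleic acid, allene oxide synthase and allene oxide cyclase turn one of the products into 12-oxophytodienoate (OPDA) in the plastid, and OPDA reductase acts on it in the peroxisome. Acyl-CoA oxidase then opens the rounds of beta-oxidation that shorten the chain to jasmonate. Jasmonate is joined to isoleucine to become active, or methylated to a volatile form, and the active form is sensed by COI1 together with JAZ repressors (ZIM motif proteins).

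Arrays held 25492, 25005 and 25326 probe sets called present after Al, against 24836, 24867 and 24927 before Al, of 57258 in all. Arrays of 1 group correlated at 0.987 over the tested probe sets, and arrays of different groups at 0.951 to 0.956. All 5 root markers looked for (OsPIN2, OsSCR1, Lsi1, QHB and OsSHR1) were present on the 6 arrays. The summed linear signal of these 5 was 8066 to 9794 after Al and 10485 to 11849 before Al. Lsi1, the brightest (mean log2 signal 12.53 after Al and 12.84 before Al), weighs most in this sum. It did not pass (limma, adjusted p = 0.0509), nor did QHB, with a log2 change of 0.21. Of the 5, 0 were higher and 2 lower, OsPIN2 and OsSCR1. The count of lower genes was 3 without the first array after Al or the third before Al. Of 18 markers of green tissue (Rubisco small subunit and chlorophyll a-b binding proteins) 8 were tested, 1 was higher (2 without the second array after Al) and 2 were lower. Over all tested probe sets, 14.3% were higher and 15.9% lower. The summed linear signal of the 18 was 1597 to 1827 after Al and 1967 to 2033 before Al, and 6 of them were present on no array. Among them LOC_Os02g05830, for the small subunit of Rubisco, had present calls on 0 arrays after Al and 3 before Al. It was 8.83-fold lower after Al, a fold that is the plain ratio of the means and not a lower bound. The part of these markers in the changes below was not tested, and in such bulk samples fewer cells of a type and less RNA per cell cannot be told apart.

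Root tips after Al had higher signals of an allene oxide synthase, of allene oxide cyclase, of 4 OPDA reductases, of 3 lipoxygenases and of 2 acyl-CoA oxidases. The signal of 1 annotated methyltransferase was far higher. The largest rises were those of the methyltransferase gene LOC_Os06g20960, of 3 neighbouring OPDA reductases on chromosome 6 and of the allene oxide synthase LOC_Os03g55800. 1 lipoxygenase, 1 OPDA reductase, 1 acyl-CoA oxidase and 1 annotated methyltransferase fell.

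Of the 47 genes, 23 had present calls on 3 or more arrays and were tested. Of the other 24, 19 were present on no array and 5 on 1 or 2 arrays. Of those tested, 12 were higher after Al and 4 lower (limma, adjusted p under 0.05). The count of lower genes was 2 without the first or the second array after Al, 2 without the second or the third before Al, and 1 without the first before Al. Among all 25283 probe sets tested, 30.2% passed in either direction, 14.3% as higher and 15.9% as lower, while the genes tested here stood at 52.2% and 17.4%. At least 2-fold, 6 rose and 1 fell, where the shares over all tested probe sets were 4.55% and 2.52%. The median log2 change of the 23 was 0.41, beside -0.04 over all tested probe sets. A gene present only or more often after Al can pass such a filter through the group where it is high. LOC_Os06g20960, LOC_Os04g37430 and LOC_Os08g39840 did so and are among the 12 that rose. Of the 18 genes present on all 6 arrays, 9 rose and 3 fell (50.0% and 16.7%), beside 14.5% and 17.4% of all probe sets present on all 6, and their median log2 change was 0.37. In the authors' deposited table, 6 of the 23 genes had a fold of 2 or more with a p-value under 0.05, the same 6 genes that rose at least 2-fold here, and 0 had a fold of 0.5 or less with a p-value under 0.05. In the same authors' deposited table LOC_Os11g15130 had a fold of 0.288 with a p-value of 0.13.

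**Figure D1:**
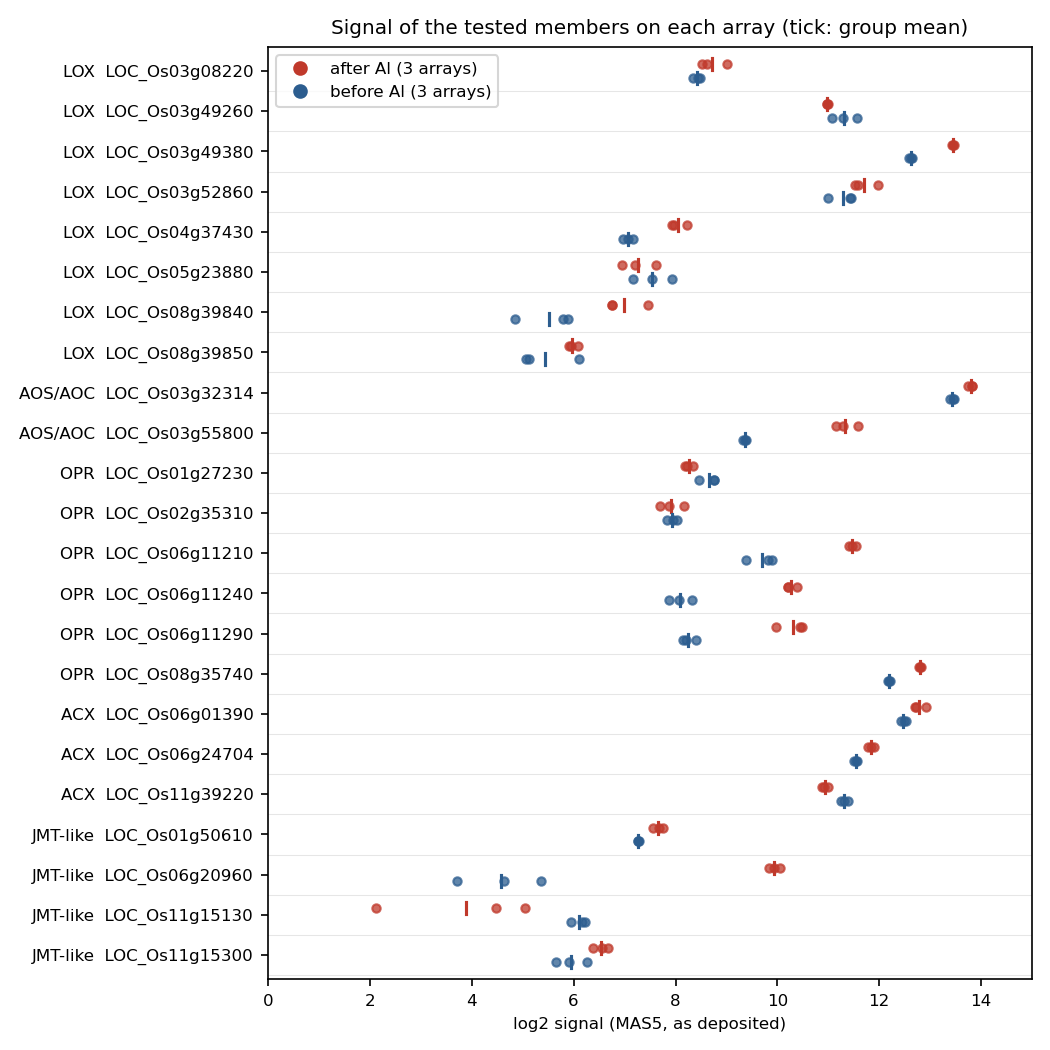
Log2 signal of each of the 23 tested genes on the 3 arrays after Al (upper row of each gene) and the 3 arrays before Al (lower row), with ticks at the group means. LOX is lipoxygenase, AOS/AOC allene oxide synthase or cyclase, OPR 12-oxophytodienoate reductase, ACX acyl-CoA oxidase and JMT-like annotated jasmonate O-methyltransferase; signals of different genes are not comparable with each other, and the groups overlapped for 3 of the 23 genes.

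The groups did not overlap for 20 of the 23 genes in the plot of signals by array, with 16 higher and 4 lower after Al. Over all tested probe sets, 43.7% did not overlap in either direction, 19.6% were higher without overlap and 24.1% were lower without overlap. Replicate spread was small for most of them, with a median SD of 0.11 after Al and 0.13 before Al on the log2 scale, close to the medians of all tested probe sets (0.13 and 0.12). The widest spread was that of LOC_Os11g15130 after Al, with an SD of 1.56.

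Lipoxygenases open the pathway. Coordinates here and below are those of the probe sets' deposited alignments, for which no source used here names a genome build. The chloroplast lipoxygenase LOC_Os08g39840 (chromosome 8, 25083519 to 25091220), annotated with the transcript lox2osPil, had log2 signals of 6.75, 6.76 and 7.46 after Al. Before Al it was at 5.79, 4.85 and 5.88 and was called present on 2 of the 3 arrays, so it passed the filter of present calls only through the arrays after Al. All 3 arrays after Al lay above those before it, and the gene rose by 1.49 ± 0.33 (log2 change, SE; limma, adjusted p = 0.00666). Its neighbour LOC_Os08g39850, annotated with the transcript CM-LOX2 and aligned to the other strand, did not pass, at 5.94, 5.91 and 6.08 after Al and 6.11, 5.07 and 5.12 before Al. Here the first array before Al lay above the 3 arrays after Al, and the 95% interval of the log2 change ran from -0.18 to 1.26.

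LOC_Os04g37430, described as lipoxygenase 5, was at 7.97, 7.94 and 8.23 after Al and 7.16, 7.06 and 6.96 before Al. It was called present on 3 arrays after Al and 1 before Al, and so passed the filter of present calls only through the arrays after Al. The signals of the groups lay apart, and the gene rose by 0.98 ± 0.14 (limma, adjusted p = 0.000631). A second probe set of this gene, marked as shared with similar transcripts, was present on all 6 arrays and rose by 1.08 ± 0.18. Both probe sets align to the same stretch, so their rises of about the same size are not independent.

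On chromosome 3, LOC_Os03g49380 (28056076 to 28062460), annotated with a transcript for a lipoxygenase of dual positional specificity, was at 13.44, 13.42 and 13.47 after Al. It was at 12.64, 12.58 and 12.63 before Al. The groups lay far apart beside their SD of 0.03 each, and the rise was 0.82 ± 0.05 (limma, adjusted p = 1.26e-06). Its probe set carries a suffix for more than 1 transcript, possibly of the same gene, so other transcripts may add to the signal.

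The lipoxygenase r9-LOX1 (LOC_Os03g49260, 27998773 to 28002905), named for oxidation at the ninth carbon of the fatty acid, lies 53.2 kb away on the same strand. It was at 10.97, 10.99 and 10.98 after Al, against 11.56, 11.29 and 11.08 before Al, so that all arrays after Al were lower. It fell by 0.33 ± 0.10 on the log2 scale (limma, adjusted p = 0.0388). That call was lost when any 1 array other than the third before Al was left out (limma, adjusted p from 0.0773 to 0.103). It was also lost without the intensity trend (0.116) and without the filter of present calls (0.0886). Without the first array before Al, its highest, the log2 change was -0.21. In the authors' deposited table its p-value was 0.139.

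The other lipoxygenases tested did not pass. Lipoxygenase L-2 (LOC_Os03g52860) had a log2 change of 0.41 ± 0.14 (95% interval 0.08 to 0.73, limma, adjusted p = 0.0596) and the groups did not overlap. Lipoxygenase 6 (LOC_Os03g08220) had a change of 0.30 (-0.01 to 0.61), and lipoxygenase A (LOC_Os05g23880) one of -0.29 (-0.82 to 0.24). The other 6 lipoxygenases, among them LOC_Os12g37260 and LOC_Os12g37320 on chromosome 12, were called present on 0 arrays.

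Allene oxide synthase takes the lipoxygenase product into the jasmonate branch. LOC_Os03g55800 (chromosome 3, 31703931 to 31705926), which the annotation calls cytochrome P450 74A1 with a chloroplast precursor, was at 11.58, 11.28 and 11.15 after Al. Before Al it was at 9.37, 9.33 and 9.38. The groups lay far apart, and the gene rose by 1.97 ± 0.10, a fold of 3.93 (limma, adjusted p = 8.19e-07). The second allene oxide synthase, LOC_Os03g12500, was called present on 0 arrays and was not tested. Its signals were 4.92, 5.27 and 4.74 after Al, against 3.85, 3.82 and 3.69 before Al, which do not overlap but are all called absent.

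Allene oxide cyclase, which closes the ring of OPDA, is represented by 1 gene, LOC_Os03g32314 (chromosome 3, 18440326 to 18441885). It was at 13.83, 13.82 and 13.75 after Al and at 13.46, 13.39 and 13.45 before Al. The groups did not overlap, and the rise was 0.36 ± 0.05 (limma, adjusted p = 0.000274), a fold of 1.29. A second probe set of this locus was absent on all 6 arrays, at 0 to 1.07 on the log2 scale.

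OPDA reductases fall into types. In Arabidopsis the type numbered 3 is the one that makes jasmonate from natural OPDA, and others reduce related compounds. The gene described as reductase 3, LOC_Os08g35740 (chromosome 8, 22414341 to 22418318), was at 12.80, 12.83 and 12.78 after Al and at 12.18, 12.19 and 12.22 before Al. All 3 arrays after Al lay above those before Al, and it rose by 0.61 ± 0.05 (limma, adjusted p = 1.03e-05), a fold of 1.52.

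A row of 5 genes described as reductase 2 lies on the minus strand of chromosome 6, with gaps of 3.2 to 16.7 kb between neighbours, and 3 of them were tested. LOC_Os06g11210, annotated with the transcript OPR-1, was at 11.54, 11.41 and 11.47 after Al and at 9.90, 9.39 and 9.82 before Al. It rose by 1.77 ± 0.12 (adjusted p = 4.08e-06). LOC_Os06g11240 had signals of 10.21, 10.39 and 10.21 after Al, against 8.33, 8.06 and 7.87 before Al, and rose by 2.19 ± 0.12 (adjusted p = 1.29e-06). LOC_Os06g11290, annotated with the transcript RRJ4, was at 9.98, 10.44 and 10.49 after Al and at 8.14, 8.40 and 8.21 before Al. Its rise was 2.05 ± 0.14 (adjusted p = 4.09e-06).

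The groups lay apart for each of the 3 genes, with folds of 3.42, 4.55 and 4.15, and the 95% intervals of their log2 changes overlapped, from 1.5 at the lowest to 2.46 at the highest. The probe set of LOC_Os06g11290 carries a suffix for more than 1 transcript, possibly of the same gene, so other transcripts may add to its signal. Those of LOC_Os06g11210 and LOC_Os06g11240 carry no such suffix. Between them, LOC_Os06g11250 was present on 0 arrays. LOC_Os06g11200, at the end of the row, was present on 1 array after Al and 0 before Al, at 4.10, 5.48 and 5.94 after Al and 4.02, 4.78 and 1.98 before Al. Neither was tested.

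The reductases described as type 2 on other chromosomes did not rise. LOC_Os01g27230 (chromosome 1, 15512000 to 15515167), measured by a probe set marked as shared, was at 8.19, 8.23 and 8.35 after Al and at 8.76, 8.47 and 8.75 before Al. It fell by 0.40 ± 0.12 on the log2 scale (limma, adjusted p = 0.0280). Its call was lost without the first or the second array after Al (limma, adjusted p = 0.0753 and 0.0772). It was also lost without the first or the third before Al (0.0980 and 0.0984), and without the filter of present calls (0.0513). LOC_Os02g35310 was at 7.88, 8.17 and 7.70 after Al and 8.02, 7.95 and 7.84 before Al. Its groups overlapped and its log2 change was -0.02 (95% interval -0.35 to 0.31).

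**Figure D2:**
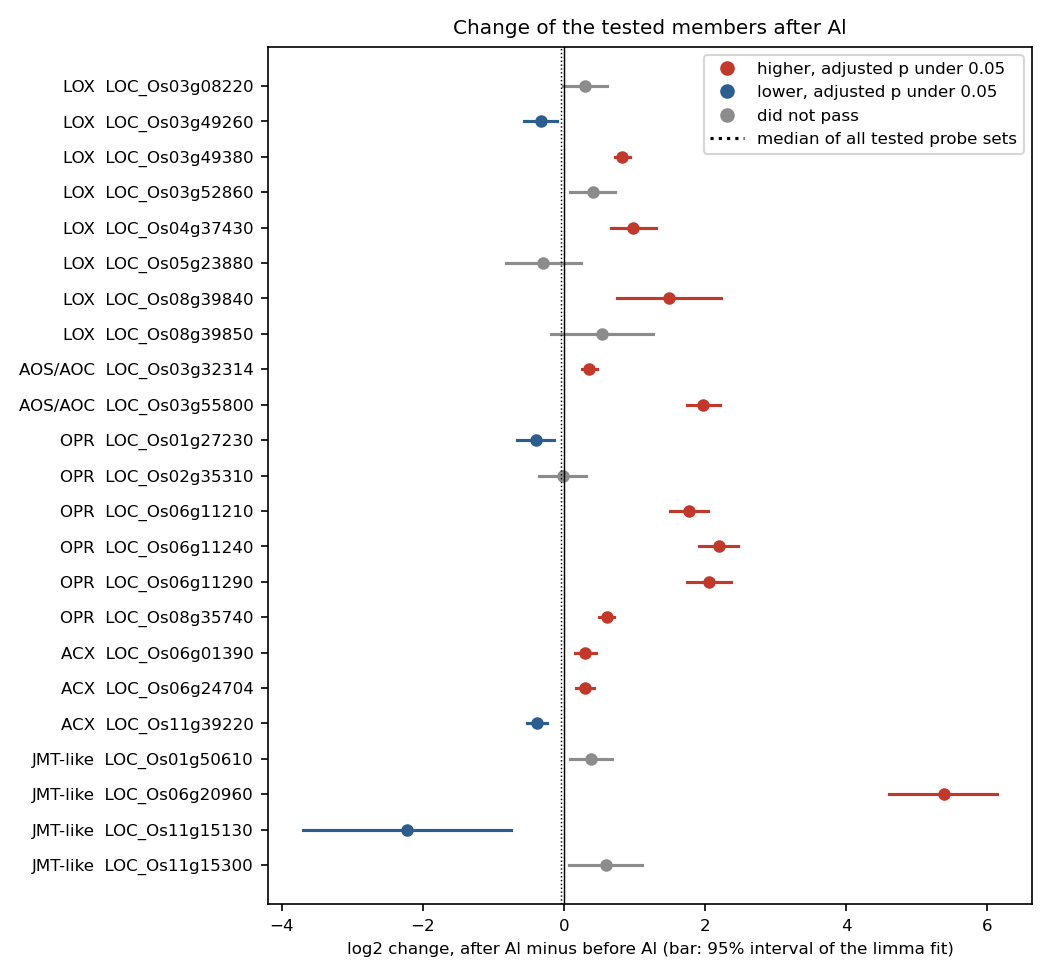
Log2 change after Al minus before Al of the 23 tested genes, with the 95% interval of the limma fit; red passed as higher, blue as lower, grey did not pass, and the dotted line is the median of all tested probe sets (-0.04). LOC_Os06g20960 stands at 5.38 and the 3 reductases of chromosome 6 at 1.77 to 2.19, while LOC_Os11g15130 has the widest interval, from -3.70 to -0.75.

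Acyl-CoA oxidases carry out the first step of each beta-oxidation round in the peroxisome, for jasmonate and for other fatty acids. All 3 were present on all 6 arrays and had small changes in both directions, as the plot of log2 changes shows. LOC_Os06g01390, described as oxidase 1.2, was at 12.70, 12.72 and 12.92 after Al and at 12.42, 12.53 and 12.48 before Al. It rose by 0.30 ± 0.07 (adjusted p = 0.00759). LOC_Os06g24704, described as oxidase 2, had 11.83, 11.77 and 11.89 after Al, against 11.50, 11.57 and 11.54 before Al, and rose by 0.30 ± 0.06 (adjusted p = 0.00313).

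LOC_Os11g39220, described as oxidase 1, was at 10.87, 10.92 and 11.00 after Al and at 11.31, 11.24 and 11.38 before Al. It fell by 0.38 ± 0.06 on the log2 scale (limma, adjusted p = 0.00148). The groups of the 3 oxidases did not overlap, in opposite directions. The folds were small, at 1.23, 1.23 and 0.767.

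The methyltransferase words of the annotation took in a wider family than jasmonate methylation. In the array's own target descriptions, 9 of the 19 genes are called salicylic acid carboxyl methyltransferase and 1 is called caffeine synthase, including all 4 genes that were tested. The substrate of these 4 rice enzymes is not settled by the files, and they are called here by their locus.

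LOC_Os06g20960 (chromosome 6, 12114575 to 12117524) had the largest change of the 23 tested genes. It was present on 3 arrays after Al, at 9.93, 9.83 and 10.06, and on 0 before Al, at 5.35, 3.71 and 4.64. It was 41.6-fold higher after Al (95% interval of the log2 change 4.61 to 6.14, limma, adjusted p = 2.6e-06). This fold is the plain ratio of the means and not a lower bound. The signals before Al lay above the lowest signal called present on those arrays but were not themselves called present. The gene passed the filter of present calls only through the arrays after Al. It lies in a row with LOC_Os06g20770, LOC_Os06g20790, LOC_Os06g20920 and LOC_Os06g21020, with gaps of 8.6 to 89.6 kb, and none of these 4 was tested. LOC_Os06g21020 was present on 1 array after Al and the other 3 on 0 arrays.

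LOC_Os11g15130 (chromosome 11, 8523515 to 8525669) was lower after Al, at 4.48, 2.12 and 5.05, against 6.17, 5.94 and 6.23 before Al. It was present on 1 array after Al and 2 before Al. It fell by 2.23 ± 0.66 on the log2 scale (limma, adjusted p = 0.0289), but its log2 change was -1.34 without the second array after Al, which was its lowest. The call was lost when any 1 array before Al was left out (limma, adjusted p from 0.0603 to 0.0830). It was also lost without the intensity trend (0.0820) and without the filter of present calls (0.0927).

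Other annotated methyltransferases did not pass. LOC_Os01g50610 had a log2 change of 0.38 (95% interval 0.08 to 0.68, adjusted p = 0.0600) and LOC_Os11g15300 one of 0.59 (0.07 to 1.10, adjusted p = 0.0867), with no overlap of the groups for either. LOC_Os01g50610 passed without the intensity trend (adjusted p = 0.0146) and where the probe sets of each gene were averaged (0.0496). This gene has 1 probe set here, so in the latter its log2 change stayed at 0.38 and only the rest of the fit differed. The 15 genes not tested were present on 0 to 2 arrays each.

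The deposited cell component terms, which were not used to choose the genes, were searched for chloroplast, then peroxisome, then cytoplasm. One of these words was found for 9 of the 23 tested genes, and other terms were not counted. Of 4 with a chloroplast term, 3 rose (LOC_Os03g55800, LOC_Os03g32314 and LOC_Os08g39840), 0 fell and 1 did not pass (LOC_Os08g39850). Of 3 with a peroxisome term, the acyl-CoA oxidases, 2 rose and 1 fell. Of 2 with a cytoplasm term, both lipoxygenases, 1 fell (r9-LOX1) and 1 did not pass (L-2). Over all tested probe sets 14.3% were higher and 15.9% lower, and over the 23 tested genes 52.2% and 17.4%. The counts by term are too small to compare compartments.

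**Figure D3:**
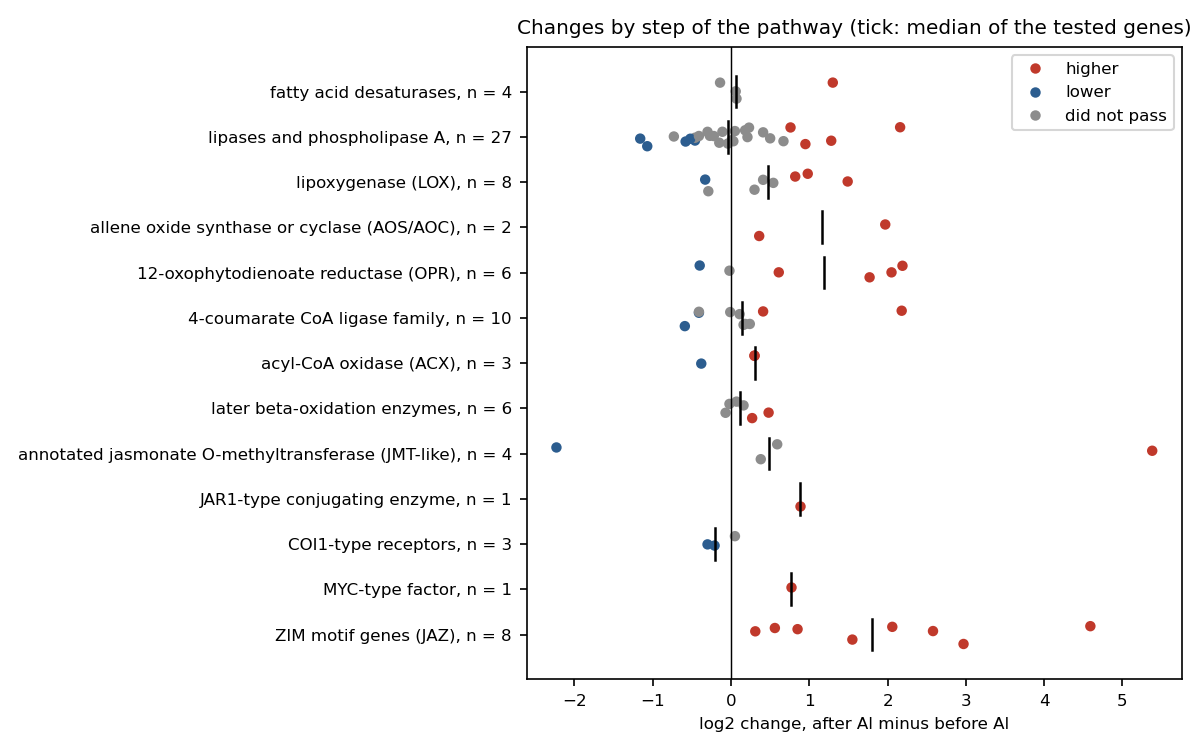
Log2 change after Al minus before Al of each tested gene, by step from fatty acid supply (top) to jasmonate sensing (bottom), with a tick at the median of each step; red passed as higher, blue as lower and grey did not pass. Medians were 0.07 for desaturases, -0.04 for lipases, 0.47 for lipoxygenases, 1.17 for allene oxide synthase and cyclase (2 genes) and 1.19 for OPDA reductases. They were 0.14 for the ligase family, 0.30 for acyl-CoA oxidases, 0.11 for later beta-oxidation and 0.48 for annotated methyltransferases. The conjugating enzyme (1 gene) stood at 0.88, COI1 receptors at -0.21, the MYC factor (1 gene) at 0.76 and ZIM motif genes at 1.80.

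Steps around these enzymes were described from lists of other genes, with the members above left out. The counts of each list stand beside 14.3% higher and 15.9% lower over all tested probe sets. Fatty acid desaturases make the linolenic acid that lipoxygenases use. Of 4 tested, 1 rose and 0 fell, with a median log2 change of 0.07. The chloroplast omega-3 desaturase LOC_Os03g18070 was at 10.73, 11.02 and 11.07 after Al and at 9.54, 9.62 and 9.75 before Al. The groups lay apart, and it rose by 1.30 ± 0.10 (adjusted p = 1.01e-05).

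Lipases release fatty acids from membranes and oils. Of 27 tested lipases and phospholipase A genes, 4 rose and 5 fell (3 without the third array before Al). Over all tested probe sets 14.3% rose and 15.9% fell. The median log2 change of the 27 was -0.04, the same as over all tested probe sets. LOC_Os06g10850 rose by 2.16 ± 0.14 (adjusted p = 3.16e-06) and LOC_Os02g43700 by 1.28 ± 0.17 (adjusted p = 0.000295), both described as triacylglycerol lipases. LOC_Os01g46290, of the same description, fell by 1.07 ± 0.12 (adjusted p = 0.000107).

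The 4-coumarate CoA ligase family, which holds enzymes that activate jasmonate precursors beside those of lignin, had 2 higher and 2 lower of 10. LOC_Os08g34790 in it, a ligase known in phenylpropanoid synthesis, rose by 2.18 ± 0.09 (adjusted p = 1.5e-07). Later beta-oxidation enzymes had 2 higher and 0 lower of 6, with a median of 0.11. These were the thiolase LOC_Os10g31950 and LOC_Os02g17390, which rose by 0.48 and 0.27, and both were named after their values were seen.

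Genes of jasmonate activation and sensing were named after their values were seen, since the lists are short. The conjugating enzyme LOC_Os05g50890 (JAR1 type, annotated GH3.5) was at 10.68, 10.57 and 10.37 after Al and at 9.67, 9.46 and 9.87 before Al. It rose by 0.88 ± 0.12 (adjusted p = 0.00033), and the other 2 genes of its list were not tested. The MYC factor LOC_Os10g42430, a transcription factor of the jasmonate response, was at 9.89, 9.98 and 9.54 after Al and 9.19, 9.00 and 8.94 before Al, a rise of 0.76 ± 0.13 (adjusted p = 0.00132). In both genes each array after Al lay above each array before Al.

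Of the 3 COI1 receptor genes, 0 rose and 2 fell. LOC_Os01g63420 fell by 0.30 ± 0.06 on the log2 scale and LOC_Os05g37690 fell by 0.21 ± 0.07, while LOC_Os03g15880 had a change of 0.05 ± 0.09. The count that fell was 1 when any 1 array other than the second after Al was left out. It was also 1 without the intensity trend and without the filter of present calls. Of 11 ZIM motif genes, 8 were tested, 8 rose and 0 fell (7 or 8 higher with 1 array left out). Without the filter of present calls 7 were higher and 1 lower, and with presence on all 6 arrays 6 were higher and 0 lower. LOC_Os04g32480, present on 3 arrays after Al and 0 before Al, and LOC_Os07g05830, present on 3 and 1, passed the filter only through the arrays after Al. The smallest adjusted p were those of LOC_Os03g08330 and LOC_Os03g08310, which rose by 2.58 ± 0.11 (1.8e-07) and by 2.97 ± 0.14 (3.42e-07). The counts of 0 given here for lists in limma were also 0 at an unadjusted p under 0.05.

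**Figure D4:**
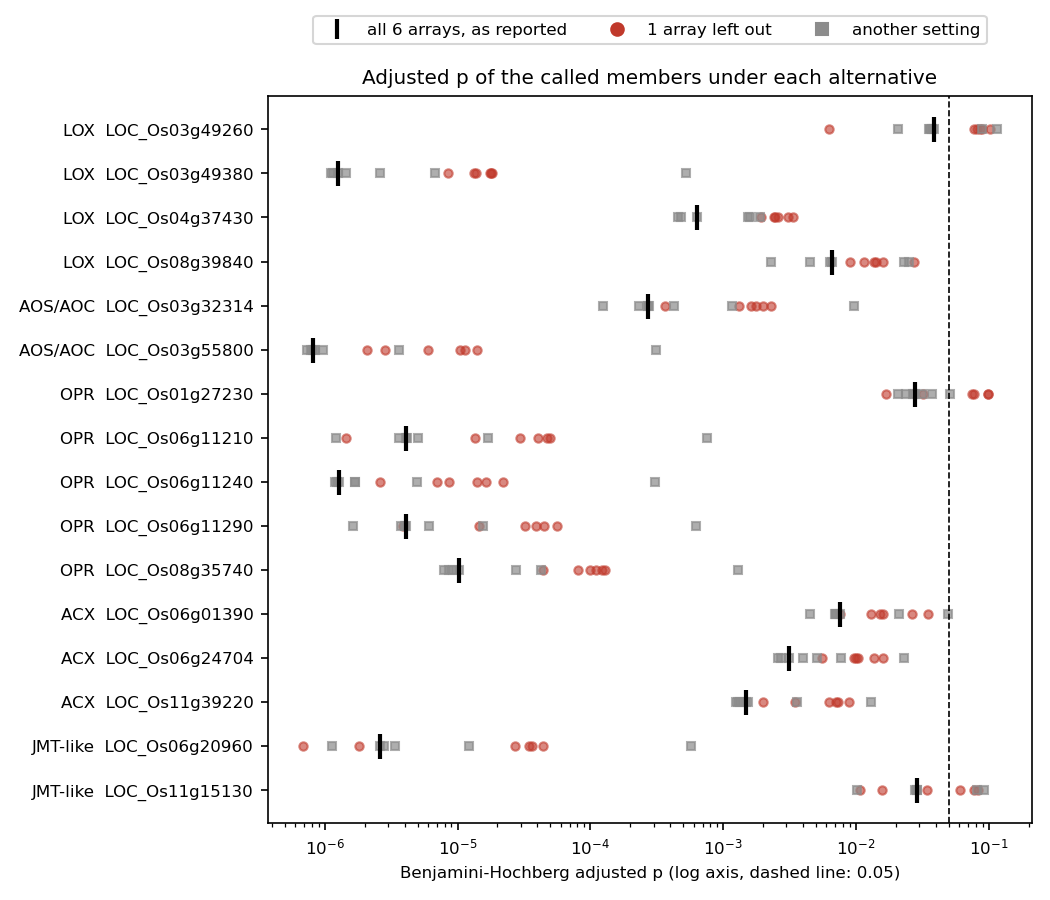
Benjamini-Hochberg adjusted p (log axis) of the 16 genes that passed, with all 6 arrays (black bar), with 1 array left out (red circles) and under other settings (grey squares). The 12 genes that rose stay left of the dashed line at 0.05, and 3 of the 4 that fell cross it.

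The plot of adjusted p shows how firm each call was. Among the 12 genes that rose, 0 lost their call under any alternative that tested them. Of the 4 that fell, 3 lost theirs in at least 1 alternative, and the acyl-CoA oxidase LOC_Os11g39220 kept it (adjusted p from 0.00124 to 0.0131).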

How the data were processed

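RNA of 6 root tip samples, 3 after Al and 3 before Al, was measured on Affymetrix rice arrays, and groups were taken from the sample titles. Both deposited tables hold log2 signals, with no difference between them (0.0 at most). The submitters' processing notes name MAS5 without a version. Linear values had 2% trimmed means of 497.0 to 497.2 on the 6 arrays. Per the file headers, one table also holds detection calls, a p-value and a fold change, whose test is not stated there. The authors' deposited p-value and fold are quoted only where credited, and the deposited fold is a ratio of treatment over control.

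Genes and coordinates are those of the deposited annotation, which names no genome build. The words matched 53 probe sets of 1 locus, and 2 more, assigned to several loci, were left out. The words matched outside the locus product for 2 genes, both allene oxide synthases. Probe sets present on at least 3 arrays were tested with limma 3.58.1 in R 4.3.3 (intensity trend, two-sided, no covariate), with Benjamini-Hochberg adjustment over 25283 probe sets and a threshold of 0.05. The degrees of freedom were 9.47 after sharing the spread, and the script was tested on simulated data. The array number limits the precision. For a gene present in 1 group only, a fold given here is the ratio of the means and not a lower bound.

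By rule, the text names every tested gene, and from each list the called genes of at least 2-fold (the 3 of smallest adjusted p where more, 2 for ZIM motif genes). Members and lists were chosen with earlier results of these data known. Alternatives were no filter, presence on all 6 arrays, no trend, quantile normalization and a replicate block. Others were another probe set rule, no shared probe sets (those with the suffix a, s or x), and each array left out.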

Additional observations from a re-analysis of the deposited data

How the results depend on the processing

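The count of genes that rose was 12, and ranged from 9 (presence on all 6 arrays, 18 tested) to 13 (no intensity trend, or the mean of a gene's probe sets); with 1 array left out it was 12 each time. The count that fell was 4. It was 1 without the filter of present calls, where the adjustment ran over 57258 probe sets, and 2 without the intensity trend (the cause was not tested). With 1 array left out, which removes a sample, it was 1 to 3. Over all probe sets the counts ran from 3000 to 3710 higher and from 3126 to 4134 lower. Of 294 recomputed changes of single genes, 273 kept direction and side of the threshold, 17 lost a call, 2 gained one (LOC_Os01g50610) and 2 changed sign. Part of the 273 was fixed in advance. Taking the probe set of smallest p gave every tested gene its reported value again. Averaging probe sets brought in a further probe set only for LOC_Os04g37430. The sign changes were those of LOC_Os02g35310, which did not pass in any setting and was 0.09 without the third array after Al and 0.02 without the first before Al (-0.15 to 0.09 with 1 array left out). Signals near background, as for LOC_Os11g15130 and LOC_Os08g39850, limit what can be seen.

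A replicate block on the numbers in the titles gave 12 higher and 4 lower, as without it. Deviations of same-numbered arrays correlated at 0.07, 0.00 and 0.09, so the numbers were not taken as pairs, and the second array after Al did not correlate best with its own number. The deposited signal columns number the arrays after Al differently from the titles, and no block on those numbers was run. By them the first array after Al meets the second before Al (correlation 0.02), and the second after Al the third before Al (0.01). The block changed no call of the 23 enzyme genes, while the count of root markers that were lower was 3 with it and 2 without it.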

Other observations

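2 further sets of genes, picked by annotation after their detection calls were seen, stood beside the enzymes. The cytochrome P450 74 family also holds hydroperoxide lyases and further allene oxide synthases, which the words of the selection did not reach. LOC_Os02g12690 (P450 74A4) was at 11.67, 11.62 and 11.64 after Al and 11.75, 11.79 and 11.68 before Al, with a log2 change of -0.10 (95% interval -0.22 to 0.03, limma, adjusted p = 0.229). LOC_Os02g02000 and LOC_Os02g12680 were present on 0 arrays.

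Genes annotated as jasmonate-induced proteins went both ways. LOC_Os12g12720 was at 12.34, 12.42 and 12.75 after Al and 10.84, 10.59 and 10.56 before Al, a log2 change of 1.84. LOC_Os10g18760 was at 8.20, 8.84 and 8.09 after Al and 10.61, 10.45 and 10.70 before Al, a log2 change of -2.22. LOC_Os12g09700 had a log2 change of -0.08 (95% interval -0.56 to 0.41), and its groups overlapped.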
